A study of Homo sapiens with 18 samples.

Results

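Endothelin genes were followed in RNA-seq libraries of Hep3B, a human hepatoma cell line. They are the ligand genes EDN1 and EDN2, the receptor genes EDNRA and EDNRB, and the converting enzyme genes ECE1 and ECE2. These 6 genes were chosen from earlier results of the same 36684-gene count table, as one functional family, so their levels and fold changes are given as a description and carry no p-value. All 6 are listed in the table. Only 3 of them, EDN1, EDNRB and ECE1, had enough counts for differential expression to be fitted.

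In all, 6 groups of 3 libraries were compared. Con was the untreated control. Model cells received free fatty acids (FFA), which load hepatocytes with lipid. FUCO-0.5, FUCO-1 and FUCO-2 cells received FFA together with fucoxanthin (FUCO), a marine carotenoid, at 0.5, 1 or 2 μM. RES cells received FFA together with Resmetirom, an agonist of thyroid hormone receptor β. The dose of RES, and the FFA dose and exposure times of these libraries, are not given in the sources used here. Each library held between 16916688 and 23083498 counts. CPM denotes counts scaled by library size and TMM factors, and means carry the SD of 3 libraries. Genes counted as differentially expressed (DEGs) when edgeR gave an adjusted p (Benjamini-Hochberg) under 0.05 together with an absolute log2 fold change over 1. The SE of a log2 fold change was derived from the test, as its absolute value divided by the square root of the edgeR F statistic. The methods of the study call the replicates biological, but the labels do not say whether they were separate cultures.

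Endothelins are short peptides cut from long precursors. Furin-type proteases first release big endothelin, and the converting enzymes ECE1 and ECE2, which are membrane metalloproteases, then trim it to the active peptide. The receptors EDNRA and EDNRB couple to G proteins that raise intracellular calcium. EDNRA mediates vasoconstriction, while EDNRB also clears the ligand and drives nitric oxide release in endothelium. In liver, sinusoidal endothelium and activated stellate cells are known sources of EDN1, and stellate cells contract in response to it.

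The cell type label was checked against marker genes. All 10 hepatocyte markers examined were detected, and their summed level ranged from 15200 to 70560 CPM per library. The 8 endothelial markers summed to 0.358 to 2.51 CPM, with CDH5, KDR and CLEC4G at 0 in every library. The 7 macrophage markers summed to 0.171 to 1.44 CPM, with CD163 and MARCO at 0. The 8 stellate and fibroblast markers summed to 13.5 to 41.5 CPM, with COL3A1 at 0 and DCN and DES at no more than 3 counts in any library. The other 5 had enough counts to be fitted. PDGFRB held 17 to 344 counts per library, LUM 51 to 306, LRAT 30 to 71, COL1A1 12 to 56 and RGS5 17 to 39. The RES libraries stood apart from the other 15 on the first principal component, which held 47% of the variance.

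The promoters of the 2 genes with the clearest differences between groups, EDN1 and EDNRB, are shown because factors known to act on EDN1 were measured in the same libraries. Both sequences are RefSeq windows on GRCh38.p14 and cover the 250 bases before a transcript start. The EDN1 window (chr6:12290111-12290360, plus strand) ends just before the start at 12290361, and the EDNRB window (chr13:77918832-77919081, minus strand) just before the start at 77918831. These are 1 of 3 windows listed for EDN1 and 1 of 2 for EDNRB, and windows were listed for 5 of the 6 genes, not for ECE2. Capitals mark matches to the letters searched. The letters are TGACTAA, the AP-1 site variant known from the EDN1 promoter, GATAA, bound by GATA factors, and ACGTG, the core of the hypoxia response element. A match on the opposite strand appears as its reverse complement.
EDN1: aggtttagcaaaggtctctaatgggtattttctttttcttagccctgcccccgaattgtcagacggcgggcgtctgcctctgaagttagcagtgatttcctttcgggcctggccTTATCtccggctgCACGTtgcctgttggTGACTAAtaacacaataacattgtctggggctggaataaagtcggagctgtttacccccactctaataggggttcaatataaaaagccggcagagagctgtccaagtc
EDNRB: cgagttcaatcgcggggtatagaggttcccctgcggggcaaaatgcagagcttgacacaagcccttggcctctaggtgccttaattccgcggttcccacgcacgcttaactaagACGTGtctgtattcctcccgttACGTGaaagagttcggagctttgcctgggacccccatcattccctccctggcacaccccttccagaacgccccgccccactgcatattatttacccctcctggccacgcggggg
In EDN1, TGACTAA lay at positions -108 to -102 relative to the transcript start, GATAA at -136 to -132 on the opposite strand and ACGTG at -123 to -119 on the opposite strand. In EDNRB, ACGTG occurred at -136 to -132 and at -114 to -110. The windows not printed held matches too. That of the other EDNRB start, at 77919682, had GATAA at -139 to -135 and, on the opposite strand, GATAA at -200 to -196 and ACGTG at -196 to -192, which share a base. That of the EDN1 start at 12288019 had ACGTG on the opposite strand at -240 to -236 and at -93 to -89. Of 35116 RefSeq promoter windows, searched over the 250 bases before a start, 1.62% held TGACTAA, 20.4% held GATAA and 18.5% held ACGTG on either strand. The AP-1 consensus TGANTCA, present in 6.57% of all windows, and the nuclear receptor half-site AGGTCA, present in 12.1%, were found in no window of the endothelin genes listed there. A match is a stretch of letters only and was not tested as a binding site.

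EDN1, the main endothelin ligand gene (chromosome 6, 12230516 to 12297194), was highest in the Model. Its levels were 3.41, 5.31 and 4.81 CPM in the Con libraries, from 59, 89 and 89 counts. The Model libraries held 7.51, 11.5 and 8.34 CPM, from 137, 206 and 154 counts. Each Model library was above every Con library, and the Model mean of 9.10 ± 2.08 CPM (SD, n = 3) was 202% of the Con mean of 4.51 ± 0.987 CPM (SD, n = 3). The log2 fold change was 1.01 (SE 0.219), just past the threshold of 1, and EDN1 was a DEG. It was the only one of the 3 fitted endothelin genes called in this comparison, in which 1.95% of all 14557 tested genes were called. This call rested on single libraries, since the log2 fold change was 0.81 without Model replicate 2 and 0.85 without Con replicate 1, both under the threshold.

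**Figure D1:**
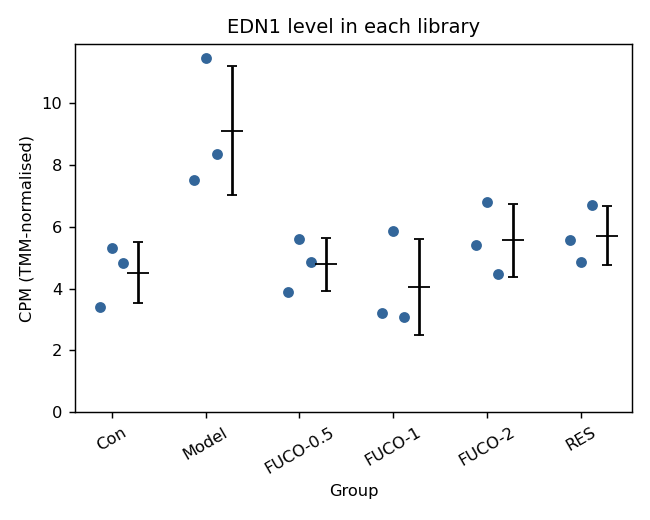
EDN1 level in CPM (vertical axis, from 0) in each of the 18 libraries by group (horizontal axis); points are libraries and the bars beside them the mean and SD of 3. The Model libraries, at 7.51 to 11.5 CPM, sit above all 15 others, of which the highest was at 6.81 CPM.

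With FUCO, EDN1 was lower than in the Model at every dose. At 0.5 μM the libraries held 3.90, 5.60 and 4.86 CPM, a mean of 4.78 ± 0.852 CPM (SD, n = 3) or 52.5% of the Model. At 1 μM they held 3.22, 5.85 and 3.09 CPM, a mean of 4.05 ± 1.56 CPM (SD, n = 3) or 44.5% of the Model. At 2 μM they held 5.41, 6.81 and 4.45 CPM, a mean of 5.56 ± 1.19 CPM (SD, n = 3) or 61.1% of the Model. No library of any dose reached the lowest Model library, and all of these comparisons share the same 3 Model libraries. The log2 fold changes against the Model were -0.93 (SE 0.216), -1.17 (SE 0.221) and -0.71 (SE 0.213), so that only the 1 μM group met both thresholds. Among all tested genes, 0.268%, 0.495% and 1.6% were DEGs at 0.5, 1 and 2 μM, and of the 3 fitted endothelin genes 0, 1 and 0 were. The FUCO-1 call was lost without Model replicate 2, where the log2 fold change was -0.97, and the difference was -1.53 without FUCO-1 replicate 2. At 0.5 μM EDN1 became a DEG without Model replicate 1 (-1.05) or without FUCO-0.5 replicate 2 (-1.06).

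The EDN1 libraries of neighbouring FUCO doses overlapped. The log2 difference was -0.24 (SE 0.237) between FUCO-1 and FUCO-0.5 and 0.46 (SE 0.233) between FUCO-2 and FUCO-1 over all libraries. These values rested on FUCO-1 replicate 2, the highest of its group at 5.85 CPM. Without it they were -0.60 and 0.82, and the other FUCO-1 libraries, at 3.22 and 3.09 CPM, lay under every library of both neighbouring doses. None of the 3 endothelin genes was a DEG in either step, where 0% and 0.577% of the tested genes were. Set against Con, the EDN1 log2 differences were 0.09 (SE 0.235), -0.16 (SE 0.240) and 0.31 (SE 0.232) at 0.5, 1 and 2 μM, and the libraries of each dose overlapped those of Con.

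With RES, EDN1 stood at 5.57, 4.85 and 6.72 CPM, a mean of 5.71 ± 0.944 CPM (SD, n = 3) or 62.7% of the Model. All 3 libraries lay under the Model and overlapped Con. The log2 fold change was -0.67 (SE 0.207) against the Model and 0.34 (SE 0.226) against Con, and neither met the DEG thresholds. Ordered by mean level, EDN1 ran from the Model through RES, FUCO-2, FUCO-0.5 and Con to FUCO-1. Only the Model was separated from its neighbour in this order, and the libraries of every other pair of neighbours overlapped.

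The absence of overlap must be read against how common it was. EDN1 and ECE1 were 2 of 3 fitted endothelin genes whose libraries did not overlap between Model and Con, as did not those of 35.7% of all tested genes. Against the Model, the groups did not overlap for 2 of 3 genes at 0.5 μM FUCO, for 1 of 3 at 1 μM and for 1 of 3 at 2 μM, beside 19.6%, 23.3% and 36.3% of all tested genes. With RES it was 3 of 3 beside 64%.

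EDN2, the gene of a second ligand isoform (chromosome 1, 41478775 to 41484683), had 0 counts in all 18 libraries. With 336350981 counts in all libraries together, a count of 0 allows a level of up to 0.00892 CPM, taking 3 counts as the limit and covering counting error only. EDN3, the remaining ligand gene, also had 0 counts throughout. EDN1 was thus the 1 ligand gene of 3 with any count.

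ECE1, the converting enzyme gene (chromosome 1, 21217250 to 21345504), had the most counts of the 6 genes. Its libraries held 169, 174 and 179 CPM in Con and 165, 152 and 154 CPM in the Model. Every Model library was under every Con library, but the log2 difference was small, at -0.15 (SE 0.086). The mean was 174 ± 5.03 CPM for Con and 157 ± 7.12 CPM for the Model (SD, n = 3). FUCO-0.5 libraries held 144, 140 and 150 CPM, FUCO-1 libraries 141, 135 and 155 CPM, and FUCO-2 libraries 161, 133 and 118 CPM. The log2 differences from the Model were -0.12 (SE 0.086), -0.13 (SE 0.086) and -0.20 (SE 0.086), and only the FUCO-0.5 libraries lay entirely under the Model. The spread was widest at 2 μM, with a mean of 137 ± 21.9 CPM (SD, n = 3), and without FUCO-2 replicate 1 the difference was -0.33.

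RES gave the lowest ECE1 levels, at 110, 98.7 and 99.1 CPM. The mean of 103 ± 6.58 CPM (SD, n = 3) was 65.3% of the Model and 59.1% of Con, and no library overlapped either group. The log2 fold change was -0.61 (SE 0.087) against the Model and -0.76 (SE 0.087) against Con, both short of the fold change threshold, so ECE1 was a DEG in no comparison. Against Con, the log2 differences were -0.27, -0.28 and -0.34 (SE 0.086 each) at 0.5, 1 and 2 μM FUCO, and all libraries of these groups were under those of Con. ECE1 was the 1 of 3 fitted endothelin genes separated from Con at each of these doses, beside 35.2%, 30.1% and 33.9% of all tested genes.

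ECE1 overlaps the antisense gene ECE1-AS1, which shares 240 of its 7308 exon bases (3.28%, GENCODE v44). Whether the counting used the strand is not given in the sources used here, so reads of the pair cannot be told apart there. ECE1-AS1 itself held 0 to 3 counts per library.

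ECE2, the second converting enzyme gene (chromosome 3, 184276022 to 184293031), had 0 counts in all 18 libraries. The same limit of 0.00892 CPM holds only if reads in exons shared with another gene were counted. Of its 4729 exon bases, 2965 (62.7%) are shared with the readthrough gene EEF1AKMT4-ECE2, and how reads in shared exons were counted is not given in the sources used here. The readthrough gene also had 0 counts throughout, and the 1764 unshared bases of ECE2 gave none. The upstream gene EEF1AKMT4, a methyltransferase gene that takes part in the same readthrough, held 28 to 125 counts per library.

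EDNRB, the type B receptor gene (chromosome 13, 77895487 to 77975527, minus strand), was low in 5 groups and nearly absent with RES. Raw counts were 51, 38 and 27 in Con and 36, 35 and 42 in the Model. FUCO-0.5 libraries had 43, 43 and 51, FUCO-1 libraries 41, 39 and 32, and FUCO-2 libraries 32, 25 and 35. The RES libraries held 0, 2 and 2 counts, from totals of 17346520 to 23083498. The lowest of the other 15 libraries had 25 counts, so the RES libraries were set apart from all of them.

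In CPM, EDNRB averaged 2.23 ± 0.745 in Con, 2.07 ± 0.182 in the Model and 0.0670 ± 0.0585 with RES (SD, n = 3). The pooled RES count of 4, set against 113 in the Model, gave a level of 2.99% of the Model after normalization, with a 95% exact binomial interval of 0.800% to 7.86% that covers counting error only. Against the 116 counts of Con it was 2.80% (0.749% to 7.36%). The fitted log2 fold change was -4.92 (SE 0.461) against the Model and -5.02 (SE 0.457) against Con, values that depend on the prior count because the RES libraries held so few reads. Their SE is derived from these fold changes and depends on the prior count too. EDNRB was a DEG in both and the 1 of 3 fitted endothelin genes called in each, beside 9.91% of all tested genes against the Model and 13.3% against Con. Both EDNRB and ECE1 were separated from Con with RES, 2 of 3 genes beside 64.6% of those tested.

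**Figure D2:**
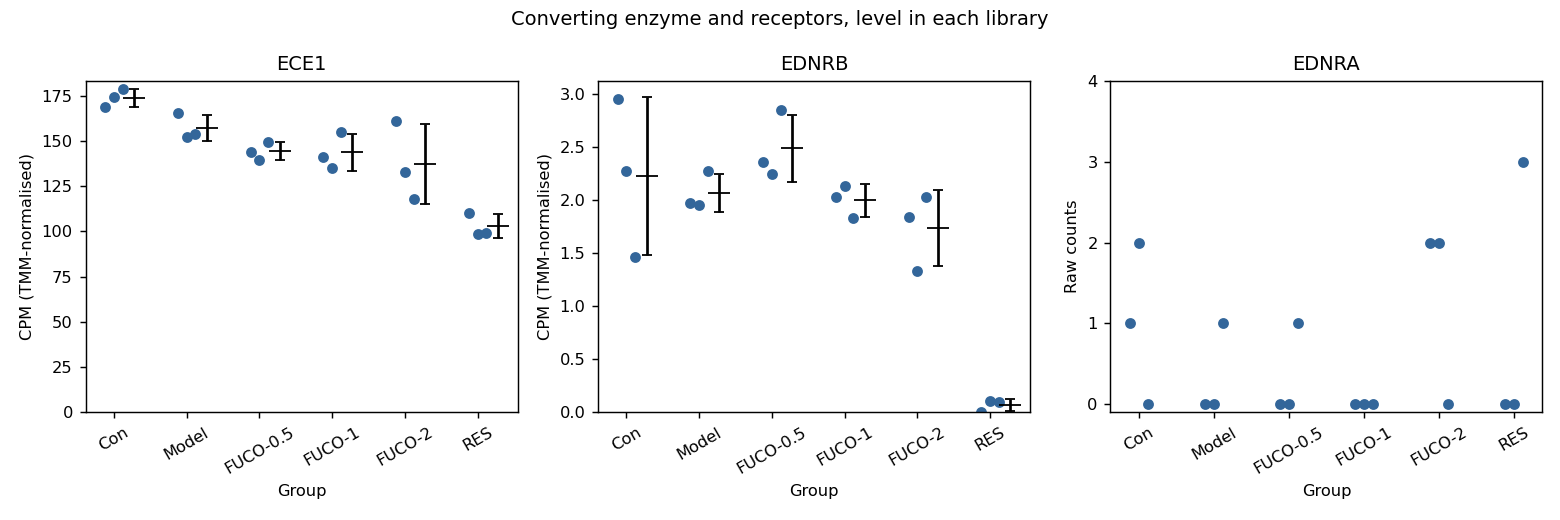
ECE1 and EDNRB levels in CPM and EDNRA raw counts (vertical axes) in each of the 18 libraries by group (horizontal axes); points are libraries and, for ECE1 and EDNRB, the bars beside them are the mean and SD of 3. ECE1 lies lowest with RES at 98.7 to 110 CPM, EDNRB lies at 0 to 0.108 CPM in the RES libraries, and EDNRA never exceeds 3 counts.

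EDNRB differed little among the other groups. The log2 difference was -0.10 (SE 0.244) between the Model and Con. Against the Model it was 0.26 (SE 0.238), -0.05 (SE 0.245) and -0.26 (SE 0.253) at 0.5, 1 and 2 μM FUCO, with overlapping libraries each time. Mean levels were 2.49 ± 0.318, 2.00 ± 0.154 and 1.73 ± 0.360 CPM (SD, n = 3) at these doses. The order by mean was FUCO-0.5, Con, Model, FUCO-1, FUCO-2 and RES, in which only RES was separated from its neighbour. Set against Con, none of the 3 fitted endothelin genes was a DEG at 0.5, 1 or 2 μM FUCO, beside 2.38%, 2.34% and 3.17% of all tested genes.

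**Figure D3:**
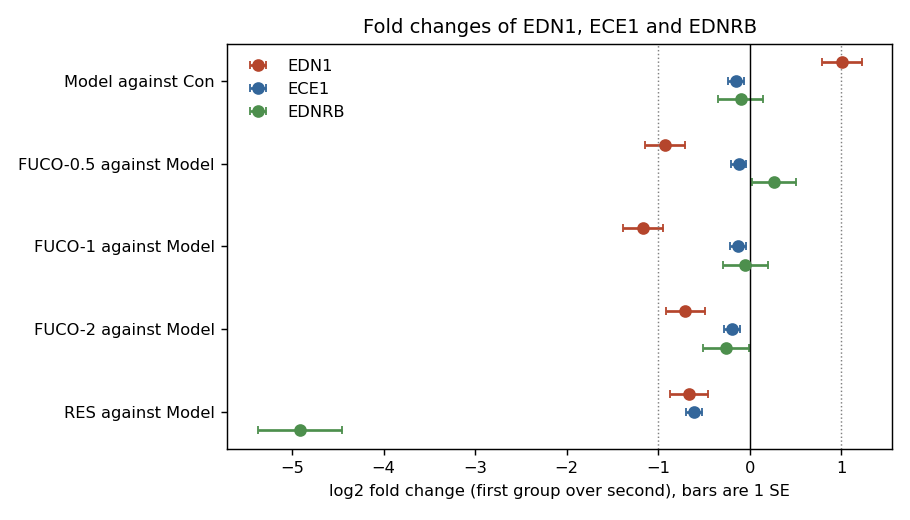
Fitted log2 fold changes of EDN1, ECE1 and EDNRB (horizontal axis) in 5 comparisons (vertical axis), with bars of 1 SE and dotted lines at the thresholds of -1 and 1. EDN1 is 1.01 in the Model against Con and between -1.17 and -0.67 in the 4 treated groups against the Model, while EDNRB is at -4.92 with RES.

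The hepatocyte markers moved with the EDNRB difference. Their summed level was 62680 to 70560 CPM in Con, 52000 to 52470 in the Model and 15200 to 15610 with RES. FUCO-0.5 sums ranged from 43480 to 54560 CPM, FUCO-1 sums from 46230 to 48760 and FUCO-2 sums from 35150 to 39430. The stellate and fibroblast sum was also lowest with RES, at 13.5 to 17.1 CPM, against 21.3 to 23.9 CPM in the Model. The part of these shifts in the EDNRB result was not tested. All libraries are of the same cell line, Hep3B, so the sums are levels of marker genes and not shares of cell types. Bulk libraries cannot tell fewer expressing cells from less RNA per cell. The endothelial sum of 0.746 to 1.25 CPM with RES, against 1.37 to 1.52 CPM in the Model, rested on few reads, and 6 of the 8 markers had no more than 3 counts in any library.

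EDNRA, the type A receptor gene (chromosome 4, 147481097 to 147544954), was barely detected. Its 12 counts came from 7 of the 18 libraries, which is 0.0357 CPM over all of them. Con libraries had 1, 2 and 0 counts and Model libraries 0, 0 and 1. FUCO-0.5 libraries had 0, 0 and 1, FUCO-1 libraries none, FUCO-2 libraries 2, 2 and 0, and RES libraries 0, 0 and 3. No difference between groups was detectable at this depth, and EDNRA was not fitted.

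Levels can be compared between the genes only per length of transcript. Per kilobase of exon, ECE1 stood at 21.5 ± 0.974 CPM in the Model, EDN1 at 4.47 ± 1.02 and EDNRB at 0.368 ± 0.0324 (SD, n = 3). In Con the same levels were 23.8 ± 0.689, 2.22 ± 0.485 and 0.397 ± 0.133. The converting enzyme was thus the highest and the receptor the lowest of the 3 in both groups, and with RES ECE1 was at 14.1 ± 0.900, EDN1 at 2.81 ± 0.464 and EDNRB at 0.0120 ± 0.0104 CPM per kilobase.

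The genes most like EDN1 and EDNRB across the 6 groups were looked up among 13077 tested genes with a mean of at least 1 CPM. Likeness was the root mean square difference between centred group means of log2 CPM, over 6 group means, and smaller is closer. For EDN1, whose group means spanned 1.19 on the log2 scale, the nearest were ADAMTS1 (0.138), a secreted metalloprotease gene, NFKBIZ (0.160), a nuclear IκB protein gene, and LIPT2 (0.196), a lipoyltransferase gene. PTP4A1 (0.201), FAM110C (0.209) and CCN1 (0.219), a matricellular protein gene, followed.

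ADAMTS1 averaged 25.2 ± 1.47 CPM in Con and rose to 55.8 ± 8.04 CPM in the Model (SD, n = 3), by 1.14 on the log2 scale (SE 0.121). It fell by 1.12 on the log2 scale at 0.5 μM FUCO (SE 0.121) and by 1.39 at 1 μM (SE 0.123). At 2 μM and with RES its differences of -0.55 and -0.59 were under the fold change threshold. The same direction was seen for CCN1, which fell by 1.40, 1.53 and 1.09 on the log2 scale at 0.5, 1 and 2 μM FUCO (SE 0.090, 0.090 and 0.089) and differed by 0.97 between Model and Con. These genes were picked for their likeness to EDN1, so their values are a description and carry no p-value.

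For EDNRB, whose group means spanned 3.96 on the log2 scale, the nearest genes were HSD17B2 (0.0584), a steroid dehydrogenase gene, MUC6 (0.165), a mucin gene, and GC (0.208), which encodes the vitamin D binding protein. SERPINA7 (0.211), the thyroxine-binding globulin gene, UPK3A (0.256) and IGF2 (0.257), a fetal growth factor gene, came next. All 6 fell with RES, by between 3.19 (IGF2) and 4.26 (SERPINA7) on the log2 scale against the Model. The log2 CPM used for likeness carried a prior count of 2, which largely sets the RES value of EDNRB at its 0, 2 and 2 counts. The span of EDNRB and its closeness to these genes depend on that prior. In the fit, EDNRB fell by more than the 3.80 of HSD17B2. HSD17B2 fell from 17.3 ± 3.22 to 1.24 ± 0.0241 CPM (SD, n = 3). GC fell from 1874 ± 82.2 to 154 ± 10.4 CPM, and at 2 μM FUCO it stood at 1165 ± 112 CPM.

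**Figure D4:**
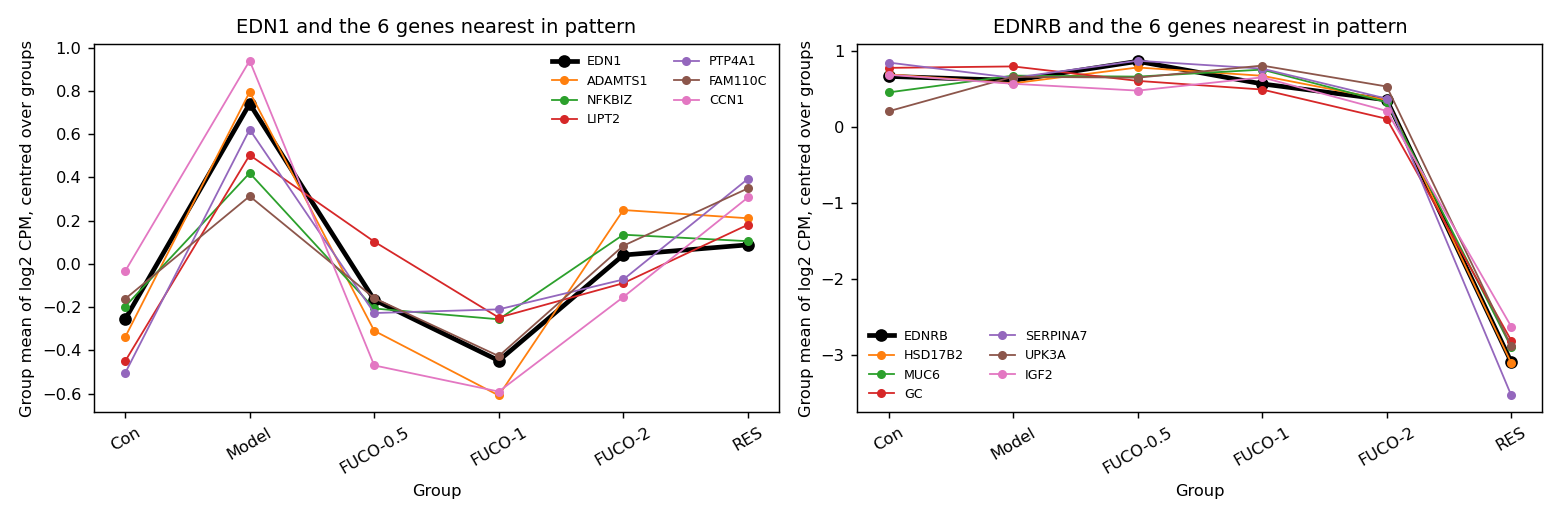
Centred group means of log2 CPM (vertical axes) over the 6 groups (horizontal axes) for EDN1 and EDNRB in black and their 6 nearest genes in colour. The EDN1 curves peak in the Model, except that of FAM110C, which peaks with RES, and the EDNRB curves stay between 0.11 and 0.88 in 5 groups and lie between -3.53 and -2.62 with RES.

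Other genes of the pathway were taken from 4 lists of 71 genes in all, of which 50 were fitted. The lists were drawn up with earlier results of these data known, so the adjusted p values printed for their genes describe the fit and are not independent support. In the Model against Con, 2 of the 50 were DEGs, or 4%, with 1 higher and 1 lower, beside 1.95% of all tested genes. Against the Model, 1 (2%), 3 (6%) and 1 (2%) were DEGs at 0.5, 1 and 2 μM FUCO, each of them lower, beside 0.268%, 0.495% and 1.6% of all tested genes. With RES 12 (24%) were, 3 of them higher and 9 lower, beside 9.91%. Among the DEGs of all tested genes, 39 of 39, 66 of 72 and 106 of 233 were lower at 0.5, 1 and 2 μM FUCO. With RES 1007 of 1443 were lower.

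The processing and clearance list holds furin-type proteases and enzymes that degrade endothelins. Of its 10 genes 5 were fitted, and none was a DEG in any of the 5 comparisons. Their median log2 fold change lay between -0.14 and 0.10, beside medians between -0.0017 and 0.0096 for all tested genes. FURIN, whose product cleaves the precursor ahead of ECE1, was at 546 ± 22.1 CPM in the Model and 358 ± 16.9 CPM with RES (SD, n = 3), a log2 difference of -0.61 (SE 0.103, adjusted p = 2.76e-05 in edgeR) that stayed under the fold change threshold. MME, which encodes the endothelin-degrading protease neprilysin, had 0 CPM in every group but FUCO-1, where its mean was 0.0165 CPM.

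The receptor coupling list holds G proteins, phospholipase C, inositol trisphosphate receptors, protein kinase C and regulators of G protein signalling. Of 23 genes 20 were fitted, with medians between -0.02 and 0.11. The single DEG was ITPR1, a calcium channel gene of the endoplasmic reticulum, which rose with RES from 7.85 ± 0.195 to 16.0 ± 0.637 CPM (log2 fold change 1.03, SE 0.104, adjusted p = 1.41e-08 in edgeR). At 0.5, 1 and 2 μM FUCO its means were 9.51, 10.8 and 14.7 CPM.

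The list of other vasoactive peptide systems had 26 genes, of which 13 were fitted. In the Model, the natriuretic peptide receptor gene NPR1 rose from 1.91 ± 0.506 to 5.11 ± 0.925 CPM (log2 fold change 1.41, SE 0.227, adjusted p = 9.90e-05 in edgeR). The natriuretic peptide gene NPPA fell by 1.36 on the log2 scale, from 1.83 ± 0.421 to 0.713 ± 0.285 CPM (SE 0.344, adjusted p = 0.00702 in edgeR). Both were low in absolute terms.

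With RES, 9 of these 13 genes were DEGs, 7 lower and 2 higher, beside 9.91% of all tested genes, and the list median was -1.04 against 0.0023 over all tested genes. AGT, which encodes angiotensinogen, fell from 963 ± 32.2 to 314 ± 22.9 CPM (log2 fold change -1.62, SE 0.104, adjusted p = 3.43e-12 in edgeR). NPPB fell by 3.09 on the log2 scale (SE 0.368), NPPA by 1.80 (SE 0.506) and the natriuretic peptide receptor gene NPR2 by 1.23 (SE 0.077), with edgeR adjusted p = 1.92e-07, 0.00471 and 2.58e-12. AGTR2, the type 2 angiotensin receptor gene, had 4 counts with RES and 24 in the Model, or 14.1% after normalization (95% exact binomial interval 3.55% to 41.0%). The genes that rose were CALCRL, a receptor gene for adrenomedullin and calcitonin gene-related peptide (log2 fold change 1.90, SE 0.313), and ACE, the angiotensin converting enzyme gene (1.68, SE 0.284), with edgeR adjusted p = 2.08e-05 and 2.84e-05. KNG1, which encodes kininogen, and RAMP2, a partner of CALCRL, were the other 2 and fell by 1.08 and 1.04. At 1 μM FUCO the only DEG of the list was ADM, the adrenomedullin gene, which fell from 20.5 ± 1.19 to 9.52 ± 1.10 CPM (log2 fold change -1.11, SE 0.126). Its libraries also lay under every Model library at 0.5 μM (9.99 to 12.2 CPM) and at 2 μM (10.6 to 13.6 CPM). With RES they lay above every Model library (29.0 to 39.3 CPM). ADM was a DEG in none of these 3 comparisons. ADM, KNG1 and RAMP2 were named after their values were seen.

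All 12 transcription factor genes known to act on EDN1 were fitted, with medians between -0.32 and 0.001. None was a DEG between Model and Con. KLF2, a factor that represses EDN1 in endothelium, fell at every FUCO dose, from 45.7 ± 3.47 CPM in the Model to 11.04 ± 0.199, 6.88 ± 0.918 and 10.5 ± 2.56 CPM. Its log2 fold changes were -2.05 (SE 0.182), -2.74 (SE 0.193) and -2.12 (SE 0.184), with edgeR adjusted p = 4.46e-08, 4.35e-10 and 2.06e-08. JUN, a subunit of AP-1, fell at 1 μM from 674 ± 6.71 to 296 ± 25.5 CPM (log2 fold change -1.19, SE 0.106, adjusted p = 2.94e-08 in edgeR). It was no DEG at the other doses, but its libraries there also lay under every Model library. They held 307 to 385 CPM at 0.5 μM and 314 to 424 CPM at 2 μM. Its partner FOS was at 404 CPM in the Model and 204 CPM at 1 μM FUCO, a log2 difference of -0.99 (SE 0.156) just under the threshold. FOS libraries held 197 to 258 CPM at 0.5 μM and 198 to 317 CPM at 2 μM, also under every Model library. With RES, KLF2 differed by -0.39 and JUN by -0.30, while GATA2 fell by 1.09 (SE 0.135) and NR1H4, the bile acid receptor gene, by 1.96 (SE 0.114), with edgeR adjusted p = 3.34e-07 and 6.82e-13.

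**Figure D5:**
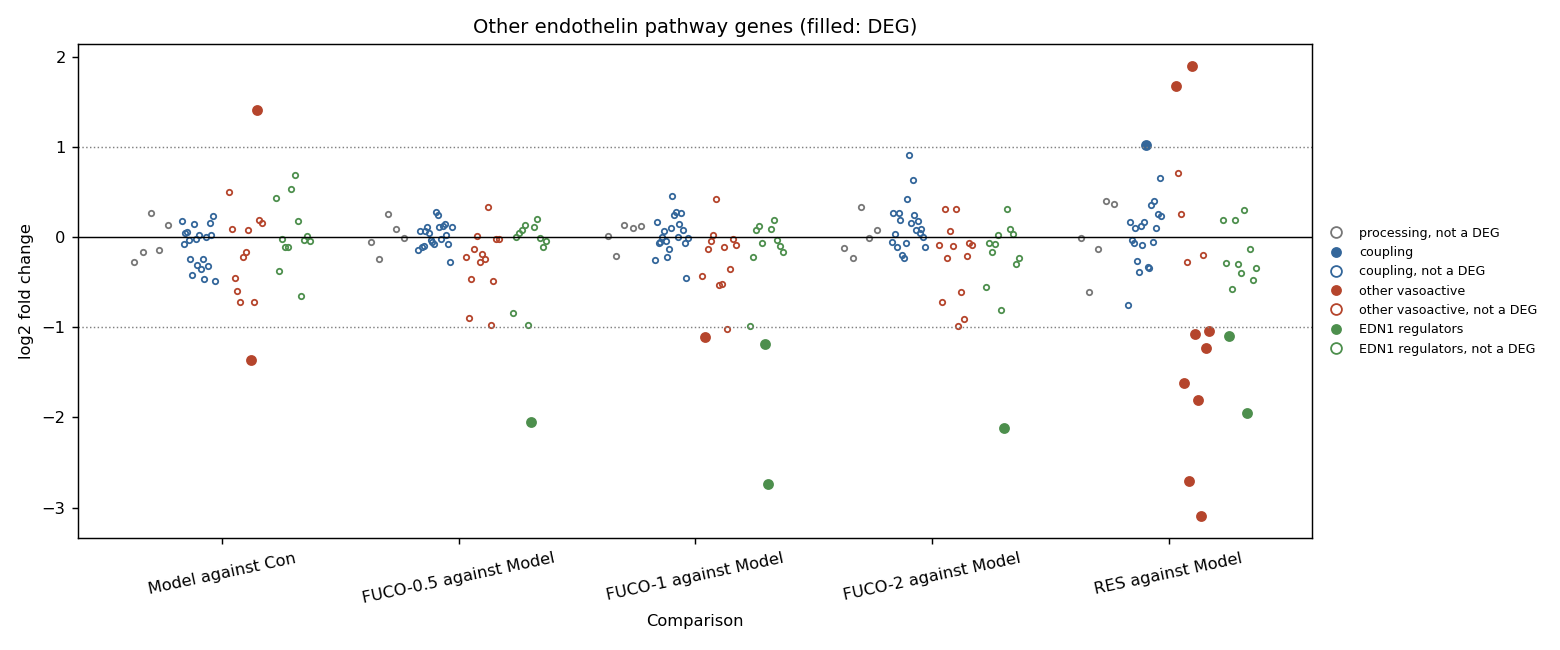
Log2 fold changes (vertical axis) of the 50 fitted pathway genes in 5 comparisons (horizontal axis), coloured by list, with filled points for DEGs and dotted lines at -1 and 1. Filled points are 2, 1, 3, 1 and 12 from left to right, and no gene of the processing list is filled.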

How the data were processed

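RNA-seq counts of 18 Hep3B libraries were used, 3 in each of 6 groups, and each library was assigned to its group by its title. The authors enriched polyadenylated RNA, trimmed reads with fastp, aligned them with STAR to GRCh38 and counted them per gene with featureCounts, and the deposited counts are raw. Strand use and the handling of reads shared by genes are not given in the sources used here. The 6 endothelin genes, the gene lists and the tests were chosen with earlier results of these data known.

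All 18 libraries were fitted in R 4.3.3 with edgeR 4.0.16 (filterByExpr, minimum count 10 and minimum total 15; TMM; quasi-likelihood test with 1 term per group; prior count 0.125), adjusting p over 14557 tested genes by Benjamini-Hochberg. The fit was tested on simulated data that followed the same count model. Changes larger than that of EDN1 between Model and Con were planted in 200 genes. The simulation therefore does not bear on changes near the threshold. Totals of 16916688 to 23083498 counts per library set the precision, and intervals cover counting error only. Named genes were the 6 endothelin genes, up to 8 DEGs per pathway list by size of change, the 6 genes nearest in pattern to EDN1 and EDNRB, and genes overlapping them in RefSeq (GRCh38.p14). Overlapping RNA genes without a row were not analysed here. Exon lengths came from GENCODE v44. As alternatives the fit was repeated with DESeq2 1.42.0, with 2 groups only, with RLE factors, without the filter, with a filter of 10 counts in every library, with a replicate block, without a threshold on fold change, and without each library in turn.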

Additional observations from a re-analysis of the deposited data

How the results depend on the processing

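Counts of DEGs among the 3 fitted endothelin genes were the same under DESeq2, edgeR with 2 groups, RLE factors, no filter on low counts and the replicate block. Requiring 10 counts in every library removed EDNRB and left 0 calls with RES against the Model and against Con, and it reduced the pathway DEGs to 1 in the Model and 7 with RES. Without a fold change threshold, EDN1 was called at 0.5 and 2 μM FUCO against the Model (1 gene each), ECE1 at 0.5, 1 and 2 μM against Con (1 each), ECE1, EDN1 and EDNRB with RES against the Model (3) and ECE1 and EDNRB with RES against Con (2). The pathway DEGs were then 17 (Model), 5 (FUCO-0.5), 7 (FUCO-1), 18 (FUCO-2) and 35 (RES) of 50. Over all tested genes this looser rule called 17.6%, 1.45%, 3.21%, 20.5% and 49.4% in these comparisons, and against Con 21.9% (FUCO-0.5), 18.3% (FUCO-1), 24.8% (FUCO-2) and 57.3% (RES).

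Leaving out each library in turn gave 0 to 1 endothelin DEGs in the Model against Con (0 without Con replicate 1 or Model replicate 2), 0 to 1 at 0.5 μM (1 without Model replicate 1 or FUCO-0.5 replicate 2) and 0 to 1 at 1 μM FUCO (0 without Model replicate 2). It gave 1 to 3 pathway DEGs in the Model (1 without Con replicate 3, where NPPA was lost), 1 to 2 at 0.5 μM (2 without FUCO-0.5 replicate 1) and 1 to 2 at 2 μM FUCO (2 without Model replicate 1, 2 or 3 or FUCO-2 replicate 1 or 3). EDNRB was called with RES in all 23 alternatives in which it was fitted.

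The labels do not say whether the replicate numbers pair the samples. Over all tested genes, libraries of the same number had residual correlations of -0.204 to 0.195, which cannot settle it. For EDN1, replicate 2 was the highest library of Con (5.31 CPM), Model (11.5), FUCO-0.5 (5.60), FUCO-1 (5.85) and FUCO-2 (6.81). With RES it was the lowest (4.85 CPM). A cause of this shared order was not tested. With the replicate block, the endothelin DEGs numbered 1 (Model), 0 (FUCO-0.5), 1 (FUCO-1), 0 (FUCO-2) and 1 (RES), and the pathway DEGs 2, 1, 4, 1 and 12 in the same order. Depth limits EDN2, ECE2 and EDNRA, whose differences could not be fitted at 0 to 3 counts per library. No called difference changed sign. Differences near 0 did when single libraries were left out, such as (range over all alternatives) EDNRB in the Model against Con (-0.34 to 0.16), EDNRB in FUCO-1 against the Model (-0.10 to 0.03) and EDN1 in FUCO-0.5 against Con (-0.08 to 0.22).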
